A study of Mus musculus with 24 samples.

Results

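Spleens of BALB.K mice given 800 cGy of total body irradiation were compared with spleens of BALB.K mice given 400 cGy, on 3 arrays per dose, 6 of the 24 arrays of the series. Arrays were chosen by strain and dose as labelled, and no measured value entered the choice. Each array held RNA pooled from 3 mice of its strain, and spleens were taken 24 hours after irradiation with an XRAD320 irradiator. The submitters describe 800 cGy in BALB.K and 900 cGy in B10.BR as myeloablative doses; the other doses were 300 cGy in both strains, 400 cGy in BALB.K and 500 cGy in B10.BR. B10.BR spleens at 900 and 500 cGy, 3 arrays each, are set beside the BALB.K step, since both steps span 400 cGy and share no array. BALB.K spleens at 300 cGy and from resting mice at 0 cGy give the lower end of the dose series. No genotype other than strain, and no transplant or drug, is given in the labels. With pooled animals the spread between arrays is a spread between pools, and fewer cells of a type and less RNA per cell cannot be told apart in bulk spleen RNA.

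Ionising radiation breaks DNA and activates p53, a transcription factor that arrests or kills damaged cells. Resting lymphocytes of the spleen, B cells above all, die readily within hours, whereas macrophages, megakaryocytes, stroma and endothelium withstand far more. The spleen of the mouse also makes red cells and platelets, and those dividing precursors are lost at low doses. The comparison of 800 with 400 cGy asks what a myeloablative dose adds to a lower one at the same time point.

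Values are scaled intensities: each array's processed signal was scaled so that the 75th percentile of its probes equals 1000. A gene was called changed at a Benjamini-Hochberg adjusted p under 0.05 in one limma fit over all 24 arrays, and each log2 change is 800 minus 400 cGy with its standard error. Of 29532 features tested, 5564 (18.8%) passed, of which 2864 (9.7% of all) were higher and 2700 (9.14% of all) lower at 800 cGy. A change of at least 2-fold was less common, with 652 features (2.21%), 252 higher and 400 lower. The balance of calls depends on the scaling: the higher share was 51.5% of calls as scaled here, 43.2% after quantile normalization, 35.4% with each array's median as reference and 85.2% with spike-in scaling, under which the median of all features stood at 0.28 in place of 0.04. The 5564 calls became 1288 with spike-in scaling, so the changes given here are relative to the bulk of each array's probes. Single arrays counted as well: 3195 features passed without replicate 2 of 800 cGy, 3324 without replicate 2 of 400 cGy and 3563 without replicate 3 of 400 cGy.

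Slide position, the sex of the pools and pancreatic RNA go with the dose. All 6 arrays lie on 1 slide, with the 800 cGy arrays in its column 2 and the 400 cGy arrays in its column 1, so that column and dose cannot be told apart within these arrays. A fit over all 24 arrays with column as a covariate, added after seeing the data, called 1468 features. The 2 arrays of 300 cGy on the same slide, 1 in each column, differed (column 2 minus column 1) by a median log2 of 0.059 over the features that were higher at 800 cGy and by -0.14 over those that were lower, against -0.094 over all features and step medians of 0.54 and -0.58. In B10.BR the columns run the other way: all 3 arrays of 900 cGy are in column 1 of slide 2, and of the 500 cGy arrays replicates 1 and 2 are in column 2 of slide 1 and replicate 3 in column 1 of slide 2. A column effect would therefore enter the BALB.K and the B10.BR step with opposite signs. In the difference between the steps it would add up, not cancel. Y-linked genes were expressed on all 3 arrays of 800 cGy but on 1 of the 3 arrays of 400 cGy (replicate 1), so the pools were not matched for sex. With only the arrays that carry Y-linked signal, which leaves 1 array at 400 cGy, 1946 features passed. Exocrine pancreas transcripts made 0.214, 0.878 and 0.458% of the total signal at 800 cGy, against 0.244, 0.00513 and 0.00337% at 400 cGy. With that exocrine level as a covariate, 3954 features passed. The labelled tissue held in both groups: the lymphocyte genes Ms4a1 and Cd3e, the macrophage genes Cd68 and C1qb and the spleen stromal factor Nkx2-3 were well above background on all 6 arrays.

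Most B cell genes fell. Of 29 B cell surface and signalling genes, 21 fell and 0 rose, with a median log2 change of -0.77 against 0.04 for all features. Of all features 9.14% fell and 9.7% rose. Genes were ranked by p among those with a RefSeq symbol, bright on all arrays of a group and with groups apart. Ccr6, a chemokine receptor of mature B cells, had the smallest p of the ranked falls (probe at mm9 chr17:8449933-8449992, plus strand). Its scaled intensity was 3775, 3535 and 3342 at 800 cGy, against 11308, 11376 and 11087 at 400 cGy, and it fell by 1.67 on the log2 scale (SE 0.074, adjusted p = 1.5e-10). Every 800 cGy array lay below every 400 cGy array for Ccr6, as for each B cell gene given values in this account unless stated. Cr2, the complement receptor of follicular and marginal zone B cells, was at 10987, 10067 and 10681 at 800 cGy, against 33503, 39401 and 38377 at 400 cGy (log2 change -1.81 ± 0.10, adjusted p = 2.1e-09). Cxcr5, the receptor that leads B cells into follicles, was at 2218, 2209 and 2154 at 800 cGy, against 7706, 9470.1 and 10140 at 400 cGy (log2 change -2.04 ± 0.16, adjusted p = 1.4e-07).
Ms4a1, which encodes CD20, was at 8901, 8443 and 8005 at 800 cGy, against 22708, 29495 and 29943 at 400 cGy (log2 change -1.69 ± 0.15). Cd79a, a signalling chain of the B cell antigen receptor, did not pass (log2 change -0.41 ± 0.15, adjusted p = 0.064), with a dim probe at 182, 202 and 198 at 800 cGy, against 268, 263 and 243 at 400 cGy whose groups did not overlap. Non-overlap alone is common here, since 47.7% of all features had groups that did not overlap.

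Among 15 B cell transcription factors, 7 fell and 1 rose, with a median of -0.36. Ebf1, which specifies the lineage, had a scaled intensity of 256, 237 and 209 at 800 cGy, against 826, 885 and 854 at 400 cGy (log2 change -1.87 ± 0.10, adjusted p = 1.3e-09). Pax5, which maintains B cell identity, was at 102, 109 and 97.2 at 800 cGy, against 324, 341 and 294 at 400 cGy (log2 change -1.64 ± 0.17). Bach2, a repressor of plasma cell fate, and Bcl11a, needed for B cell development, changed by -1.36 ± 0.14 and -1.35 ± 0.07, but another, dimmer probe of each did not pass, at -0.65 and -0.11. The member that rose was Id3, an inhibitor of E proteins, at 9799, 9365 and 9242 at 800 cGy, against 5688, 4606 and 4355 at 400 cGy (log2 change 0.96 ± 0.13). Id3 is not confined to B cells. Further genes with the smallest p among ranked falls were Ell3, an elongation factor of the germinal centre lineage, and Cpm, a membrane carboxypeptidase. Ell3 was at 715, 745 and 801 at 800 cGy, against 2967, 3577 and 3638 at 400 cGy. Cpm was at 177, 210.0 and 204 at 800 cGy, against 800.1, 996 and 1029.7 at 400 cGy. Ell3 and Cpm fell by 2.17 and 2.25 on the log2 scale. The glycosyltransferase gene B3gnt5 fell by 2.30 on the log2 scale. H2-Ob and H2-DMb2, the class II peptide-loading genes, fell by 1.71 and 1.46. Of 26 antigen presentation genes 18 did not pass, 6 fell (23.1%) and 2 rose (7.69%), against 9.14% and 9.7% of all features. With only the arrays carrying Y-linked signal, 15 of the 29 surface genes fell and 0 rose, and with slide column as a covariate 17 fell and 0 rose; with spike-in scaling 9 fell.

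T cell genes fell as well. Of 22 T cell receptor and coreceptor genes, 19 fell and 0 rose (median -0.79). Of 15 naive T cell genes, 11 fell and 1 rose (median -0.75), against 9.14% and 9.7% of all features. Dapl1, a marker of naive T cells, was at 171, 150.2 and 151 at 800 cGy, against 619, 545 and 605 at 400 cGy (log2 change -1.91 ± 0.13, adjusted p = 4.3e-08). Il7r, the receptor for the survival cytokine of resting T cells, was at 1228, 1210.2 and 1119 at 800 cGy, against 4263, 4178 and 4078 at 400 cGy (log2 change -1.82 ± 0.26, adjusted p = 1.7e-04). All 3 arrays of 800 cGy lay below all 3 of 400 cGy for both genes. Il7r was at 4072, 4450.2 and 3396 at 300 cGy, so its values at 400 cGy lay within the range at 300 cGy. Lef1, a transcription factor of naive T cells, changed by -1.31 ± 0.15, and Trat1, an adaptor of the T cell receptor, by -1.46 ± 0.24. The coreceptor gene Cd8b1 changed by -1.18 ± 0.13 and Cd8a by -1.14 ± 0.09, although the other Cd8a probe did not pass, at 0.11. Cd3e, a chain of the receptor complex, was at 2635, 2886 and 2505 at 800 cGy, against 4081, 4203 and 4005 at 400 cGy (log2 change -0.62 ± 0.10). Cd4 did not pass, at 6031, 6696 and 6522 at 800 cGy, against 5717, 5868 and 6319 at 400 cGy (log2 change 0.10 ± 0.10), and its other probe did not pass either. In the mouse spleen a subset of dendritic cells also expresses Cd4. With only the arrays carrying Y-linked signal, 15 of the 22 receptor genes and 8 of the 15 naive genes fell, and with slide column as a covariate 12 and 9 fell; with spike-in scaling 2 and 4 fell.

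Several regulatory T cell and natural killer (NK) genes fell at this step. Of 16 regulatory T cell genes, 12 rose and 0 fell at 300 against 0 cGy, where 21.3% of all features rose and 24.9% fell. At 800 against 400 cGy 5 fell (31.25%) and 3 rose (18.75%), against 9.14% and 9.7% of all features. Foxp3, the defining factor of the lineage, was at 322, 344 and 339 at 800 cGy, against 479, 506 and 512 at 400 cGy (log2 change -0.58 ± 0.10, adjusted p = 5.0e-04). Il2ra, the high-affinity chain of its growth factor receptor, was at 966, 937 and 1047 at 800 cGy, against 1795, 1884 and 1737 at 400 cGy (log2 change -0.88 ± 0.10, adjusted p = 1.6e-05). For both genes the 800 cGy arrays lay below the 400 cGy arrays, and in Foxp3 also below the range of 415 to 447 in resting spleens. Of 24 NK and cytotoxic genes, 7 rose and 3 fell at 300 against 0 cGy, a rising share near that of all features. Across the step 9 fell (37.5%) and 0 rose (median -0.33). The NK receptor gene Klra8 was at 1328, 1132 and 1259 at 800 cGy, against 2044, 2724 and 2892 at 400 cGy (log2 change -1.03 ± 0.11). Klrd1, which encodes CD94, was at 648, 635 and 679 at 800 cGy, against 1029, 1259 and 1177 at 400 cGy (log2 change -0.82 ± 0.09). The transcription factor gene Eomes changed by -0.93 ± 0.13. Among the arrays carrying Y-linked signal 1 regulatory T cell gene fell and 0 rose, and 3 NK genes fell and 1 rose. Slide column as a covariate left 1 regulatory T cell gene and 4 NK genes that fell and 0 that rose, and with spike-in scaling 0 and 1 fell. The 3 regulatory T cell genes that rose became 0 without replicate 2 of 800 cGy or replicate 2 or 3 of 400 cGy, and 1 without replicate 1 or 3 of 800 cGy.

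**Figure D1:**
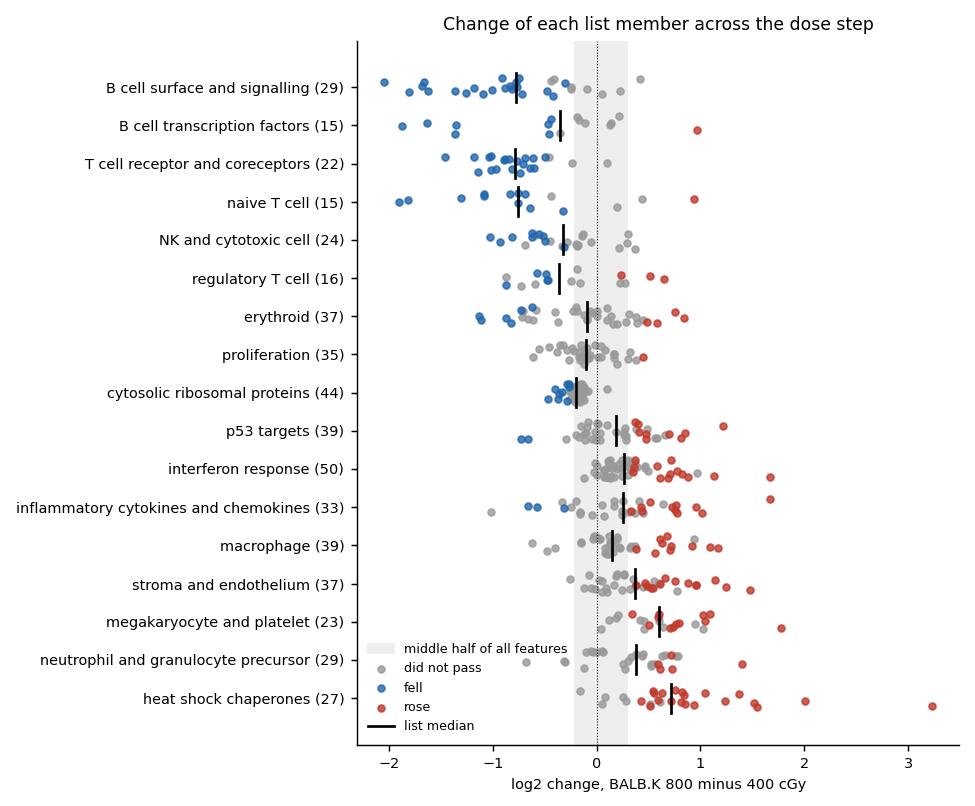
Log2 change (800 minus 400 cGy, x axis) of every measured member of the main gene lists, with the number of members in brackets; red points rose, blue points fell, grey points did not pass, black bars are list medians and the grey band holds the interquartile range of all 29532 features. Lymphocyte lists lie to the left, with 21 of 29 B cell surface genes fallen, and chaperone, megakaryocyte and stromal lists to the right; the chaperone list was drawn up after its values were seen.

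Genes of cell division were already low at 400 cGy. All 35 measured proliferation genes fell at 300 against 0 cGy (median -2.81), but across the step 0 fell and 1 rose (median -0.10). Mki67, the marker of cycling cells, was at 7207, 7744 and 7563 at 800 cGy, against 8085, 9209.8 and 9915 at 400 cGy (log2 change -0.27 ± 0.16, adjusted p = 0.26). Resting spleens stood far above both, at 113670, 147040 and 110750. The mitotic kinase gene Aurka was the member that rose (log2 change 0.45 ± 0.14, adjusted p = 0.037), a call lost with median or spike-in scaling, the 12 BALB.K arrays alone, the deposited table, the arrays carrying Y-linked signal, the exocrine level or slide column as a covariate, and without replicate 2 or 3 of 800 cGy or replicate 1 or 2 of 400 cGy. Of 37 erythroid genes, 34 fell at 300 against 0 cGy, where 24.9% of all features fell. Across the step 6 fell and 4 rose (median -0.09), 16.2% and 10.8% of the list against 9.14% and 9.7% of all features. Ahsp, the chaperone of alpha globin, was at 303, 215 and 333 at 800 cGy, against 504, 677 and 667 at 400 cGy (log2 change -1.13 ± 0.37). Gata1, a factor shared by erythroid cells and megakaryocytes, moved the other way, at 5494, 7845 and 5402 at 800 cGy, against 4352, 3621 and 3077 at 400 cGy (log2 change 0.75 ± 0.25, adjusted p = 0.046). With only the arrays carrying Y-linked signal 1 erythroid gene fell and 1 rose, and with slide column as a covariate 0 of the 37 passed. Without replicate 2 of 800 cGy 2 fell and 1 rose, and without replicate 3 of 400 cGy 1 fell and 2 rose. The 6 that fell became 3 without replicate 1 of 800 cGy or replicate 2 of 400 cGy.

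Targets of p53 were split. Of 39 measured, 28 rose at 300 against 0 cGy, where 21.3% of all features rose. Across the step 9 rose and 2 fell (median 0.19), 23.1% and 5.13% of the list against 9.7% and 9.14% of all features. The 9 became 5 without replicate 2 of 800 cGy or replicate 2 or 3 of 400 cGy, and 3 on the arrays carrying Y-linked signal or with slide column as a covariate. Cdkn1a, the p21 inhibitor of the cell cycle, was at 8938, 9212 and 9559.9 at 800 cGy, against 3757, 3747 and 4433 at 400 cGy (log2 change 1.22 ± 0.10, adjusted p = 2.8e-07; probe at mm9 chr17:29237377-29237436, plus strand). The groups did not overlap, and both stood above the 254, 212 and 207 of resting spleens. Its 2 dimmer probes did not pass, at 0.30 and 0.57. Ddb2, a damage recognition gene, and Sesn1, a sestrin, fell by 0.73 and 0.66 on the log2 scale. Ddb2 was at 1031, 1026 and 1262 at 800 cGy, against 1645, 1870.4 and 1984 at 400 cGy. The pro-apoptotic gene Bax did not pass, at 36457, 34658 and 34669 at 800 cGy, against 37231, 37155 and 37771 at 400 cGy (log2 change -0.08 ± 0.08), nor did the stress cytokine gene Gdf15, at 3921, 3496 and 3543 at 800 cGy, against 2486, 2344 and 2585 at 400 cGy (log2 change 0.56 ± 0.21, adjusted p = 0.072). Of 31 DNA repair genes, 6 fell (19.4%) and 2 rose (6.45%), against 9.14% and 9.7% of all features. With slide column as a covariate or with spike-in scaling 0 passed. The list median was -0.04, and 0.02 on the arrays carrying Y-linked signal. Without replicate 2 of 800 cGy or replicate 2 or 3 of 400 cGy 2 fell, and without replicate 3 of 800 cGy 3 fell. Atm, the kinase that senses double-strand breaks, changed by -0.62 ± 0.15, and Ercc1, a subunit of a repair nuclease, by 0.60 ± 0.14. Of 25 apoptosis regulators 20 did not pass, 2 rose (8%) and 3 fell (12%), near the 9.7% and 9.14% of all features (median 0.06). The survival gene Bcl2 had the largest fall of that list, at -0.67 ± 0.12, while the survival genes Mcl1, Bcl2l1 and Xiap did not pass. The growth regulator Myc changed by -1.16 ± 0.14. It is from the immediate early and heat shock list, of which 20.8% rose and 8.33% fell.

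**Figure D2:**
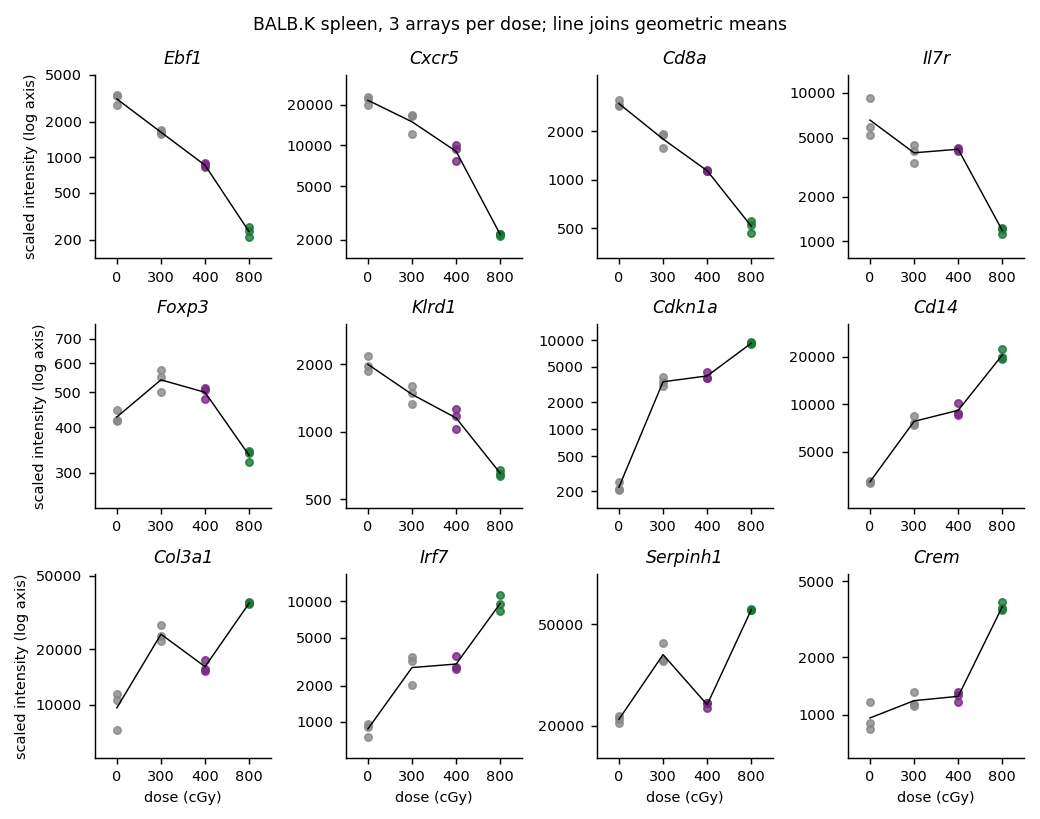
Scaled intensity (log axis) of 12 genes on each of 3 BALB.K arrays at 0, 300, 400 and 800 cGy (categories, not to scale on the x axis), with 800 cGy in green, 400 cGy in purple and the lower doses in grey; lines join geometric means. On the log axis, Il7r, Irf7 and Crem changed more between 400 and 800 cGy than between 300 and 400 cGy. Cdkn1a had most of its rise on the log axis by 300 cGy.

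Chaperones of the heat shock response, which refold damaged proteins and are induced by the factor HSF1, were higher at 800 cGy. This list was drawn up after its values were seen, so its count is a description only: 20 of 27 measured members rose and 0 fell, with a median of 0.71. The promoters of 3 chaperone genes are printed here, because these genes moved together and heat shock factors bind inverted repeats of GAA; the motif searched was GAA, NN, TTC, NN and GAA joined in that order, on both strands, with N any base. They are RefSeq sequences of the reference assembly GRCm38.p6, which is not the genome of BALB.K, 250 bases before to 50 after the annotated start, read 5′ to 3′ on the gene's strand, with matches on either strand in capitals. The windows are chr5:149636266-149636565 (minus strand) for Hsph1, chr1:55087898-55088197 (plus strand) for Hspe1 and chr17:34972107-34972406 (minus strand) for Hspa1a.
Hsph1: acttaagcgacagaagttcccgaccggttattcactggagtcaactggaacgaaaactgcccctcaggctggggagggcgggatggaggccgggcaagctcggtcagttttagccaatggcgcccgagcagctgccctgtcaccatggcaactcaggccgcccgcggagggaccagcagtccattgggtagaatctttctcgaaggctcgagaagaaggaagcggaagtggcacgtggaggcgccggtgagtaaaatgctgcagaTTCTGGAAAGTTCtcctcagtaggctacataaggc
Hspe1: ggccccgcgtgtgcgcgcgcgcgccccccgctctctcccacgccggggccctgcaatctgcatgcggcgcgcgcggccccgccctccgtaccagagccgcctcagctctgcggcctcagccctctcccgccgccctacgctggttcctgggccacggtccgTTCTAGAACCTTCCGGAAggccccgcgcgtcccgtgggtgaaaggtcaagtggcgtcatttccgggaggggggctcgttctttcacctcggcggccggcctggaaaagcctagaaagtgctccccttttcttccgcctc
Hspa1a: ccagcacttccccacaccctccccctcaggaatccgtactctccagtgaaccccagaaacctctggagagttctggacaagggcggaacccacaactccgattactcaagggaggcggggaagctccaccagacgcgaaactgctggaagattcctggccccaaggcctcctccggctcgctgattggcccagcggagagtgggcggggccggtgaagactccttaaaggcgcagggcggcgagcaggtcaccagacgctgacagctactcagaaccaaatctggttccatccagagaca
The Hsph1 window holds 1 match, which begins at base 266 of the window. The Hspe1 window holds 2 overlapping matches that begin at bases 162 and 167, and the Hspa1a window holds no full match. The search allowed no mismatch, so a shorter or imperfect element would not be marked. The motif occurs in 0.603% of all 32851 promoters of this length, and in 5 of the 29 promoters of chaperone genes. Those promoters belong to 4 of the 22 chaperone genes that have a promoter entry (Hsph1, Hspe1, Hspd1 and Chordc1). Hspd1 and Hspe1 are neighbours whose windows overlap.

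Hspa1a, which encodes an inducible Hsp70, had the largest rise of the list. Its scaled intensity was 5169.9, 4011 and 2934 at 800 cGy, against 521, 417 and 339 at 400 cGy, 9.38-fold higher (log2 change 3.23 ± 0.80, adjusted p = 0.0088; probe at mm9 chr17:35107117-35107176, minus strand). Hspa1a shares much of its sequence with its tandem copy Hspa1b, and its probe may read both. Hsph1, a co-chaperone of Hsp70, was at 31326, 31262 and 25581 at 800 cGy, against 7456, 6442 and 8068 at 400 cGy (log2 change 2.005 ± 0.35, adjusted p = 7.9e-04). All 3 arrays of 800 cGy exceeded all 3 of 400 cGy for both genes.
Serpinh1, the collagen chaperone Hsp47, had the second smallest p among ranked rises. It was at 56645, 56908 and 57416 at 800 cGy, against 24543, 23447 and 24499 at 400 cGy (log2 change 1.24 ± 0.10, adjusted p = 2.6e-07). The small chaperone Hspb1 was at 46139, 36941 and 32841 at 800 cGy, against 15705, 12932 and 11795 at 400 cGy (log2 change 1.52 ± 0.26). Fkbp4 and Stip1, co-chaperones of Hsp90, changed by 1.55 ± 0.17 and 1.37 ± 0.17, and the inducible Hsp90 gene Hsp90aa1 by 0.86 ± 0.13. The mitochondrial pair Hspd1 and Hspe1 changed by 0.43 ± 0.11 and 0.51 ± 0.09. Dnajb1, a J-domain partner of Hsp70, did not pass (log2 change 0.61 ± 0.25, adjusted p = 0.099), although its groups did not overlap. Members with several probes could disagree: the brightest Hspa4 probe stood at -0.16 without passing while its 2 other probes rose by 1.13 and 1.22.
Chaperone levels also varied outside the step. Resting BALB.K spleens had 34183, 12526 and 13842 for Hsph1 and 681, 80.7 and 81.5 for Hspa1a, with replicate 1 far above the others. Replicate 1 was the only resting BALB.K pool with Y-linked signal, which all 3 pools of 800 cGy carried. Its Hsph1 value exceeded those of all 3 arrays of 800 cGy. The part of sex in the chaperone values was not tested. At 300 against 0 cGy 7 of the 27 rose and 11 fell. In B10.BR spleens Hspa1a was at 625, 683 and 1569.9 at 900 cGy, against 546, 532 and 565 at 500 cGy. Across that step 0 chaperones rose and 1 fell (median -0.03), against 1.27% and 3.5% of all features. For 16 of the 27 the BALB.K change was higher than the B10.BR change in the test of the difference, against 2.9% of all features. The list was drawn up after the BALB.K values that enter this difference were seen, so this count too is a description only. Hsph1 differed by 2.04 (adjusted p = 0.027) and Serpinh1 by 1.42 (adjusted p = 6.4e-05). Hspa1a did not pass that test (2.55, adjusted p = 0.2). The B10.BR arrays of 900 cGy and 500 cGy lie on 2 slides, and with slide as a block, or with slide column as a covariate, 3 of the 27 chaperones were higher in BALB.K, and 7 were on the arrays carrying Y-linked signal. The 16 became 7 without replicate 2 of 800 cGy, 8 without replicate 2 of 400 cGy or replicate 1 or 2 of B10.BR 500 cGy, and 9 without replicate 1 of 800 cGy or replicate 2 of B10.BR 900 cGy. Within BALB.K, with only the arrays carrying Y-linked signal, 14 rose and 0 fell, and with slide column as a covariate 16 rose and 0 fell.

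**Figure D3:**
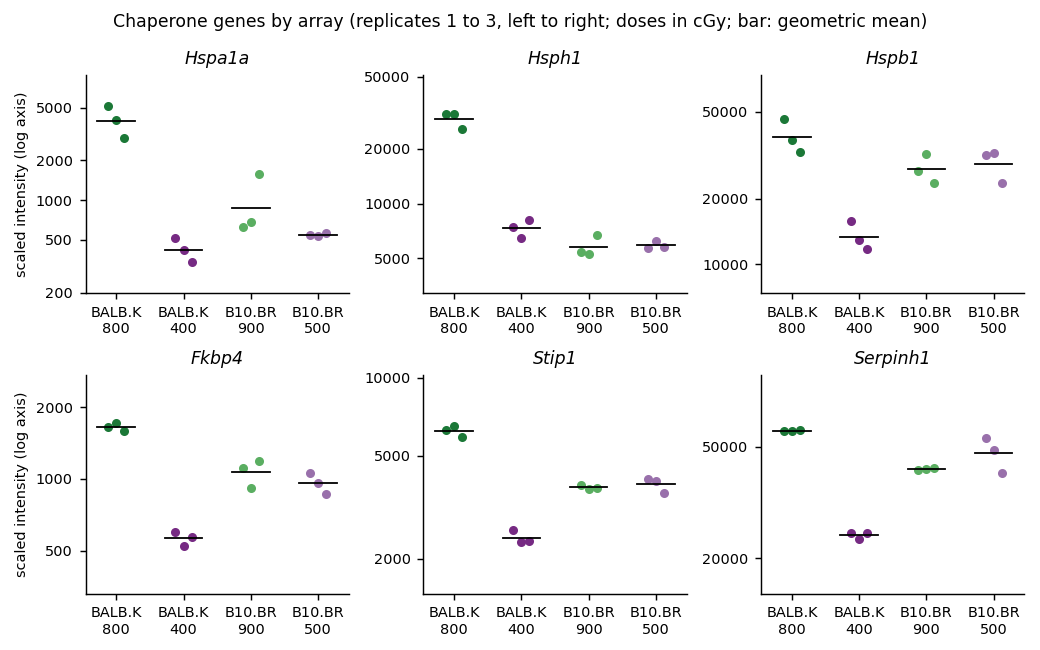
Scaled intensity (log axis) of 6 chaperone genes on each array of BALB.K at 800 and 400 cGy and of B10.BR at 900 and 500 cGy; points are replicates 1 to 3 from left to right and bars geometric means. The BALB.K arrays of 800 cGy lie above those of 400 cGy in all 6 panels, for example from 2934 to 5170 against 339 to 521 for Hspa1a, whereas the B10.BR groups overlap in all panels except Hspa1a.

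Interferon-response genes differed in direction between the strains. The promoter of Oas3, an antiviral synthetase gene with the largest difference in the list, is printed because interferon regulatory complexes bind repeats of GAAA; the motif searched was GAAA, NN and GAAA joined in that order on either strand, capitals marking the match at base 176 (RefSeq, GRCm38.p6, chr5:120777610-120777909, minus strand, the same kind of window).
Oas3: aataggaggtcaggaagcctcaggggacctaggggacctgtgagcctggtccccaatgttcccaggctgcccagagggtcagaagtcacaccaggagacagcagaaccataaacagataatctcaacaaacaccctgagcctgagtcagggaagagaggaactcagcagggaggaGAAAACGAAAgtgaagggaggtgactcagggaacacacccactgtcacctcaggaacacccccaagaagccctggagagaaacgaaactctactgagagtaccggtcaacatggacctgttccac
These letters occur in 3.44% of all promoters and in 23 of the 44 promoters of interferon-response genes. Those promoters belong to 21 of the 36 interferon-response genes that have an entry. In BALB.K, 13 of 50 genes rose (26%) and 0 fell (median 0.27), against 9.7% and 9.14% of all features. Irf7, the amplifier of type I interferon, was at 8233, 9494 and 11266 at 800 cGy, against 3514, 2838 and 2742 at 400 cGy (log2 change 1.67 ± 0.24, adjusted p = 1.3e-04). Oas3 was at 1578, 1937 and 2116 at 800 cGy, against 688, 915 and 975 at 400 cGy (log2 change 1.13 ± 0.21, adjusted p = 0.0011). The BALB.K groups did not overlap for Irf7 or Oas3. In B10.BR, 0 of the 50 rose and 19 fell across its step (median -0.50), against 3.5% of all features that fell there. Oas3 was at 1071, 1216 and 1036 at 900 cGy, against 2109.8, 2033 and 1720.2 at 500 cGy (log2 change -0.82 ± 0.21, adjusted p = 0.029). Oasl1 did not pass in BALB.K (log2 change 0.47 ± 0.18) and changed by -1.24 ± 0.18 in B10.BR.
In the test of the difference, 26 of the 50 genes were higher in BALB.K and 0 lower, against 2.9% and 2.1% of all features. Oas3 differed by 1.95 (adjusted p = 0.0018), Irf7 by 1.90 (adjusted p = 0.0052) and Tap1, a peptide transporter, by 1.19 (adjusted p = 0.0087). Ifit3 passed neither test. The 26 became 11 with slide as a block, 4 with slide column as a covariate and 0 with spike-in scaling, while leaving out single arrays gave 13 (without replicate 2 of BALB.K 400 cGy) to 28 (without replicate 3 of BALB.K 400 cGy), with 14 to 16 without replicate 2 or 3 of BALB.K 800 cGy, replicate 1 of BALB.K 400 cGy, replicate 3 of B10.BR 900 cGy or replicate 1 or 2 of B10.BR 500 cGy. In BALB.K alone, 24 genes rose with the exocrine level as a covariate, 21 with only the arrays carrying Y-linked signal, and 5 with slide column as a covariate. The 13 became 7 without replicate 3 of 800 cGy, 8 without replicate 1 of 400 cGy and 18 without replicate 3 of 400 cGy.

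**Figure D4:**
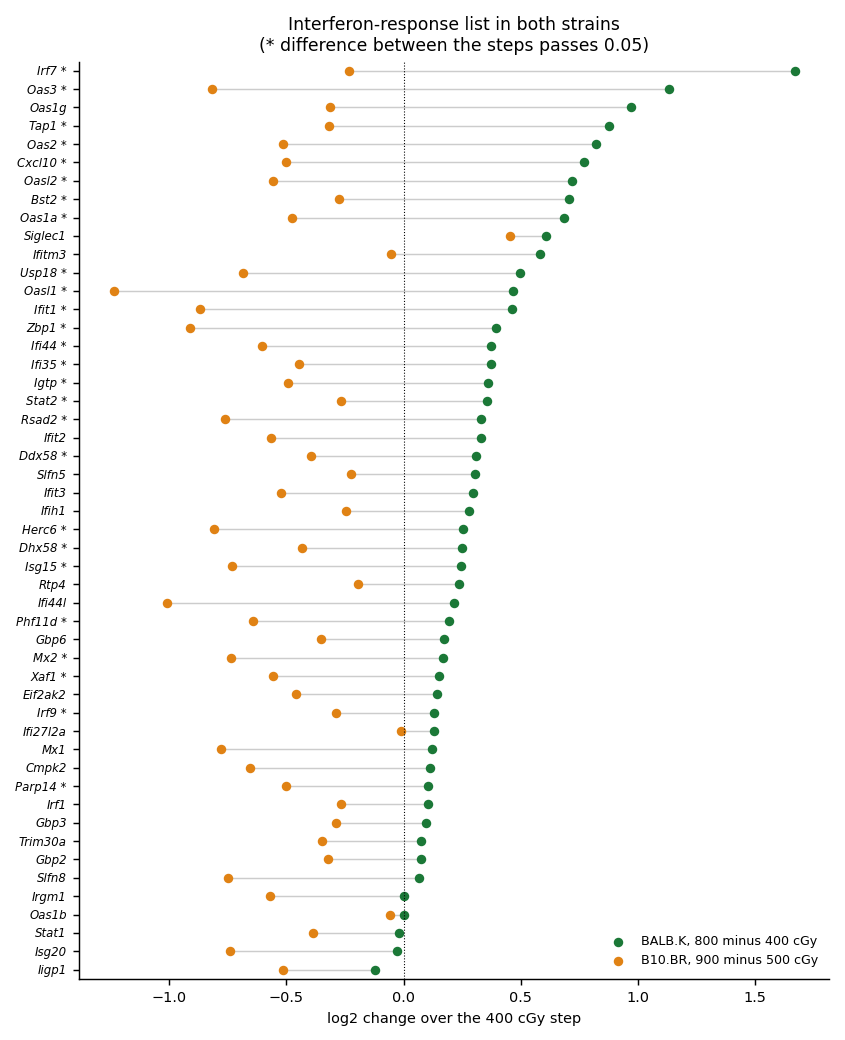
Log2 change (x axis) of 50 interferon-response genes over the 400 cGy step in BALB.K (green, 800 minus 400 cGy) and in B10.BR (orange, 900 minus 500 cGy), ordered by the BALB.K change; asterisks mark the 26 genes whose difference passes. In BALB.K 47 of 50 values lie above 0, and in B10.BR 49 of 50 lie below 0.

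Macrophage genes were higher or did not pass. Of 39, 10 rose (25.6%) and 0 fell (median 0.15), against 9.7% and 9.14% of all features. Cd14, the endotoxin coreceptor, was at 19328, 22479 and 20077 at 800 cGy, against 8789, 8592 and 10129 at 400 cGy (log2 change 1.17 ± 0.12, adjusted p = 5.1e-06). Cd68, a lysosomal protein, was at 1605, 1682 and 1470.3 at 800 cGy, against 755, 797 and 686 at 400 cGy (log2 change 1.09 ± 0.20), and C1qb, which opsonises dead cells, at 19888, 22451 and 22488 at 800 cGy, against 12512, 10847 and 10847 at 400 cGy (log2 change 0.92 ± 0.18). Groups were apart for all 3 genes. Trem2, a lipid receptor, changed by 0.72 ± 0.17. Gpnmb and the red pulp scavenger receptor gene Cd163 did not pass. Among 33 inflammatory cytokines and chemokines, 11 rose (33.3%) and 3 fell (9.09%), with a median of 0.25. The falling share was near the 9.14% of all features, of which 9.7% rose. The monocyte-attracting chemokine gene Ccl2 was at 1350.3, 893 and 1049 at 800 cGy, against 462, 584 and 563 at 400 cGy (log2 change 1.02 ± 0.17, adjusted p = 6.2e-04), and Ccl7 at 250.4, 119.7 and 219 at 800 cGy, against 62.1, 60.2 and 55.0 at 400 cGy (log2 change 1.66 ± 0.38). In B10.BR both did not pass, and the differences were 1.55 and 2.30. Ccl8, Il1b and Lif changed by 0.96 ± 0.26, 0.73 ± 0.25 and 0.76 ± 0.17. Il1b is shared with the neutrophil list, of whose 29 measured genes 5 rose (17.2%) and 0 fell. Cd177, a neutrophil surface protein, was at 272, 631 and 323 at 800 cGy, against 115, 208 and 126 at 400 cGy (log2 change 1.40 ± 0.30), with replicate 2 highest in both groups. With only the arrays carrying Y-linked signal, 7 macrophage and 5 cytokine genes rose, and with slide column as a covariate 3 and 4 rose. The 11 cytokine genes became 6 without replicate 1 or 3 of 800 cGy and 7 without replicate 2 of 800 cGy or replicate 2 of 400 cGy. The 5 neutrophil genes became 2 without replicate 2 of 800 cGy, 3 without replicate 1 or 3 of 400 cGy and 1 with slide column as a covariate.

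Megakaryocyte, stromal and matrix genes were higher too. Of 23 megakaryocyte and platelet genes, 12 rose (52.2%) and 0 fell (median 0.60), against 9.7% and 9.14% of all features. Itga2b, the platelet integrin CD41, was at 4367, 5806 and 4754 at 800 cGy, against 2876, 1320.5 and 787 at 400 cGy (log2 change 1.78 ± 0.43, adjusted p = 0.0081). Tubb1, the platelet tubulin, was at 944, 1428 and 978 at 800 cGy, against 641, 519 and 455 at 400 cGy (log2 change 1.04 ± 0.22). Groups were apart in both, but replicate 1 of 400 cGy, the pool with Y-linked signal, was the highest of its group in each. Among the arrays carrying Y-linked signal, 1 of the 23 rose (median 0.39), with the exocrine level as a covariate 2 rose, and with slide column as a covariate 1 rose. Leaving out single arrays gave 2 (replicate 3 of 400 cGy), 3 (replicate 2 of 800 cGy), 5 (replicate 2 of 400 cGy) and 6 (replicate 1 of 800 cGy), and 12 without replicate 1 of 400 cGy; the 12 BALB.K arrays alone and the deposited table gave 5. The thrombin receptor gene F2rl2 was at 206, 300.2 and 162 at 800 cGy, against 98.0, 110.5 and 96.2 at 400 cGy, and the platelet chemokine gene Pf4 did not pass (log2 change 0.41 ± 0.17).
Of 37 stromal and endothelial genes, 14 rose (37.8%) and 0 fell (median 0.37), against 9.7% and 9.14% of all features. Col3a1, a fibrillar collagen, was at 35517, 36205 and 34985 at 800 cGy, against 15597, 17533 and 15266 at 400 cGy (log2 change 1.14 ± 0.13, adjusted p = 1.2e-05). Col4a2, of basement membranes, was at 8682, 9801 and 9479 at 800 cGy, against 4924, 4197 and 2918 at 400 cGy (log2 change 1.25 ± 0.18), and the groups were apart for both. Lyve1, a receptor of lymphatic and sinusoidal endothelium, changed by 1.47 ± 0.35, and Cxcl12, the chemokine that retains stem cells, by 0.48 ± 0.11. Of 24 matrix remodelling genes, 6 rose (25%) and 1 fell (4.17%), against the same shares of all features. Timp1, an inhibitor of metalloproteinases, was at 5510.3, 5164 and 5747 at 800 cGy, against 3214, 3336 and 3373 at 400 cGy (log2 change 0.73 ± 0.11). In B10.BR, Timp1 was at 8117, 8556 and 6862 at 900 cGy, against 17390, 16844 and 16039 at 500 cGy (log2 change -1.10 ± 0.11), a difference of 1.83 (adjusted p = 1.6e-05). Matn1, a cartilage matrix protein, rose in BALB.K (log2 change 0.60 ± 0.17) and in B10.BR (log2 change 0.72 ± 0.17). The osteocalcin-family genes Bglap2 and Bglap3 changed by 2.62 ± 0.49 and 2.53 ± 0.52, with Bglap2 at 754, 550.0 and 485 at 800 cGy, against 163, 96.0 and 55.0 at 400 cGy. The humoral pattern receptor gene Ptx3 was at 53.3, 35.0 and 72.3 at 800 cGy, against 17.7, 12.8 and 4.12 at 400 cGy, well above background on 1 of the 3 arrays of 400 cGy. With only the arrays carrying Y-linked signal 7 stromal and 3 matrix genes rose, and with slide column as a covariate 8 and 3 rose.

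Among called genes with a RefSeq symbol, bright on all arrays of a group and with groups apart, the largest rises lay in Reg genes. The Y-linked genes Ddx3y, Eif2s3y, Uty and Kdm5d changed by 6.95, 5.26, 3.44 and 0.88 on the log2 scale without passing. Another Y-linked gene, Rbmy, did pass in limma and was among the largest rises (log2 change 3.23, adjusted p = 0.025). It was well above background on 1 of the 3 arrays of 400 cGy, and its other probe did not pass, at 1.35. Ddx3y and Uty were well above background on 1 of the 3 arrays of 400 cGy. All 6 measured Reg genes, which encode secreted lectins of the acinar pancreas and gut, rose (median 5.99). Reg3b was at 189, 4295 and 6724 at 800 cGy, against 31.1, 5.96 and 3.85 at 400 cGy, where 1 of 3 arrays was well above background (adjusted p = 0.0025). Reg2 was at 3512, 26686 and 24357 at 800 cGy, against 643, 10.8 and 19.8 at 400 cGy, well above background on 2 of those 3. The sizes of these rises, and the list median, rest on signals that were in part not measured above background. Reg3a was not well above background on any array of 400 cGy and was at least 23.2-fold higher at 800 cGy. Replicate 1 of 800 cGy was the lowest of its group for all 3 genes. The 26 digestive enzyme and acinar genes were all higher on average (median 5.42), but 0 passed in limma, with 23 at an unadjusted p under 0.05, and replicate 1 of 400 cGy had a larger exocrine share than replicate 1 of 800 cGy. The elastase gene Cela2a was at 3216, 17342 and 4459 at 800 cGy, against 2334, 9.89 and 3.14 at 400 cGy, where 1 of 3 arrays was well above background (adjusted p = 0.052). With the exocrine level as a covariate 4 Reg genes rose (median 3.49), and 1 rose on the arrays carrying Y-linked signal (median 4.19). Of 9 islet genes 0 passed and 2 were lower at an unadjusted p under 0.05, and of 11 adipocyte genes 0 passed by either measure. In B10.BR all 6 Reg genes rose as well, with Reg3b at 4571, 3364 and 4417 at 900 cGy, against 3.26, 3.16 and 40.6 at 500 cGy. The part of pancreatic tissue on the spleen in these values was not tested.

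Outside these lists, several genes changed with little spread. H3c15, a histone H3 gene, had the smallest p among ranked rises. It was at 1275, 1498 and 1416 at 800 cGy, against 419.9, 433 and 448 at 400 cGy (log2 change 1.68 ± 0.12, adjusted p = 4.0e-08). Near-identical histone copies can share its probe. Crem, a cyclic AMP-responsive regulator, was at 3637, 3875 and 3526 at 800 cGy, against 1273, 1167 and 1312 at 400 cGy (log2 change 1.56 ± 0.14), while its 2 other probes stood at -0.14 and 1.69. Arg2, the mitochondrial arginase, was at 2964, 3272 and 3178 at 800 cGy, against 1138, 949 and 1112 at 400 cGy (log2 change 1.56 ± 0.17). The groups were apart for all 3 genes, and Crem at 300 cGy was at 1138, 1313 and 1116, which overlaps its values at 400 cGy. Among the largest falls, Tsga13 was well above background at 400 cGy (76.5, 71.5 and 81.0) and on no array of 800 cGy, at least 6.4-fold lower. Jhy, a gene of motile cilia, was at 112, 112 and 118 at 800 cGy, against 673, 1001 and 1012 at 400 cGy (log2 change -2.95 ± 0.28). B10.BR spleens had only 13.8 to 31.7 for Jhy at 900 and 500 cGy. Cytosolic ribosomal protein genes shifted by small amounts, with 9 of 44 fallen, 0 risen and a median of -0.20, but 0 fell on the arrays carrying Y-linked signal, with slide column as a covariate or with spike-in scaling, 2 without replicate 3 of 400 cGy and 5 without replicate 2 or 3 of 800 cGy. Of all features 9.14% fell and 9.7% rose. Rpl12 changed by -0.46 ± 0.11.

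Features that had changed at the lower end of the series and passed again across the step mostly kept their direction. Of 6294 features higher at 300 than at 0 cGy (21.3% of all), 19.6% rose and 6.18% fell across the step. Of 7354 features lower at 300 than at 0 cGy, 15.5% fell and 6.4% rose. These comparisons share no array. Of the features that rose across the step, 40.4% had not passed at 300 against 0 cGy, as had 43.4% of those that fell.

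Over all features, the BALB.K step made 5564 calls and the B10.BR step 1411 (4.78%), and 1477 features (5%) differed between them, 856 higher and 621 lower in BALB.K. The higher share was 58% of these calls, 46.1% after quantile normalization and 49.2% with normexp background correction. The 1477 became 487 to 967 when replicate 1, 2 or 3 of BALB.K 800 cGy, replicate 2 or 3 of BALB.K 400 cGy, replicate 1 or 3 of B10.BR 900 cGy or replicate 1 or 2 of B10.BR 500 cGy was left out, 264 with slide as a block, 88 with slide column as a covariate and 2 with spike-in scaling. The features with the largest positive difference were Myh1, Bglap2, Bglap3, Kel, Ctsg, Mpo, Epb42 and Ccl7, of which Kel, Ctsg, Mpo and Epb42 did not pass in BALB.K. By this test 5 of 29 B cell surface genes were lower and 1 higher in BALB.K, against 2.1% and 2.9% of all features. In B10.BR 17 of the 29 also fell, against 3.5% of all features. The 5 became 2 with slide as a block or on the arrays carrying Y-linked signal, 1 with slide column as a covariate and 0 with spike-in scaling. Cxcr5 differed by -1.15 (adjusted p = 0.0086) and Ebf1 by -1.03 (adjusted p = 0.0012). Of 22 T cell receptor genes 0 differed by this limma test, 2 higher and 2 lower at an unadjusted p under 0.05, with medians of -0.79 in BALB.K and -0.73 in B10.BR. Proliferation genes had fallen in BALB.K before the step. In B10.BR 24 of 35 fell across its own step (median -0.64), against 3.5% of all features. Whether these genes had also fallen in B10.BR before that step was not tested. By the test of the difference 7 of 35 were higher in BALB.K, against 2.9% of all features. The 7 became 2 with slide as a block, 1 with slide column as a covariate, 0 with spike-in scaling, 3 without replicate 2 of BALB.K 800 cGy and 4 without replicate 2 of BALB.K 400 cGy or replicate 2 or 3 of B10.BR 900 cGy.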

How the data were processed

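RNA of homogenised splenocytes was isolated with TRIzol and RNeasy columns, labelled with Cy3 and hybridised to one-colour Agilent arrays of 1 design, per the labels' protocols. The deposited intensity values are processed signals of Agilent Feature Extraction 10.5.1.1, background-subtracted and detrended within each array per the file headers, with probe coordinates on mm9. The authors' deposited table of log2 values, centred per probe, served only as an alternative; how its arrays were scaled stays unknown.

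Of 55681 non-control probes, 42319 were well above background on all 3 arrays of at least 1 of the 8 groups and were kept, with spots marked as outliers left out. The log2 signal was set relative to each array's 75th percentile, printed as 1000, and each gene was represented by its brightest probe on average. RefSeq symbols came by accession (26413 probes), symbol (3859) or synonym (735), and 24674 kept the file's name. Limma 3.58.1 in R 4.3.3 fitted group means over all 24 arrays, with 16 residual degrees of freedom, and p-values were adjusted over all 29532 features at 0.05. The difference between strains is the contrast of both steps in that fit. Simulated data were used for the BALB.K step alone, where 76% of added log2 changes of 1 were recovered in either direction and 14 unchanged features were called. The simulated noise was independent between features, with no column, sex or pancreatic effect, so the simulation does not test for those. The difference between strains was not simulated. The number of arrays limits the precision, and p-values measure the spread between pools, which may be technical. Alternatives covered scaling, background correction, filters, probe choice, the arrays fitted, covariates, blocks and single arrays left out.

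The comparison and the gene lists were chosen with earlier results of these data known. The named genes are part of those with the largest changes and smallest p-values in each direction, among genes with a RefSeq symbol, bright on all arrays of a group and with groups apart; up to 3 called members of each list with the largest change; the 8 largest differences between strains in each direction and the largest of each list; and a set of markers. Genes named outside this rule were chosen after their values were seen. Where no array of a group was well above background, the fold is a bound against the higher of the probe's own signal and the lowest signal well above background on each array. Replicate numbers were not taken to pair the samples, since deviations of same-numbered BALB.K arrays correlated at -0.094, -0.11 and 0.16.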

Additional observations from a re-analysis of the deposited data

Results flagged for a closer look

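The effect of a 400 cGy step differed between strains, by the test of the difference itself, for 1477 features. The count was 264 with slide as a block, 88 with slide column as a covariate and 2 with spike-in scaling. The compared arrays of the strains lie on different slides, with most of the columns of the higher and lower dose reversed, and their steps start from different doses. The values here are log2 differences, the BALB.K step minus the B10.BR step, of the named genes that passed this test.

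Among interferon-response genes the difference was 1.95 for Oas3, 1.9 for Irf7, 1.7 for Oasl1 and 1.19 for Tap1. Among chaperones it was 2.04 for Hsph1, 1.6 for Hspb1, 1.42 for Serpinh1, 1.41 for Stip1, 1.39 for Fkbp4, 1.09 for Hsp90aa1, 0.853 for Hspe1 and 0.677 for Hspd1. The chemokine genes Ccl7 and Ccl2 differed by 2.3 and 1.55, the neutrophil gene Cd177 by 1.86, the phagocyte receptor gene Trem2 by 1.3 and the thrombin receptor gene F2rl2 by 0.919.

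The osteocalcin-family genes Bglap2 and Bglap3 differed by 3.23 and 2.98, and the stromal and matrix genes Timp1, Col3a1 and Col4a2 by 1.83, 1.24 and 1.17. The difference was 1.3 for Crem, 1.3 for the histone gene H3c15, 1.29 for Arg2, 1.06 for the mitotic kinase gene Aurka and 0.733 for Id3. Among p53 targets it was 1.02 for Gtse1 and 0.726 for Cdkn1a, but -0.671 for Ddb2 and -0.618 for Sesn1.

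Differences below 0 included the B cell genes Cxcr5 (-1.15), Ebf1 (-1.03), Ms4a1 (-0.964), Pax5 (-0.915), Ccr6 (-0.878) and Cr2 (-0.741) and the class II peptide-loading gene H2-Ob (-0.945). They also included Cpm (-1.46), Ell3 (-1.18), B3gnt5 (-1.08), the NK receptor gene Klra8 (-0.65) and Il2ra (-0.541). Jhy differed by -3.22 and was not well above background on every B10.BR array of 500 cGy. Tsga13 was well above background on no array of BALB.K 800 cGy or B10.BR 900 cGy, so its fitted difference of -1.83 is not a measured size.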

How the results depend on the processing

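The BALB.K step was recomputed under 25 alternatives and the difference between strains under 30. For the step, 1288 features passed with spike-in scaling, 1946 with only the arrays that carry Y-linked signal and 1468 with slide column as a covariate, an alternative chosen after seeing the data; leaving out single arrays gave 3195 to 4802. For the difference, 925 features passed with median scaling, 2 with spike-in scaling, 2721 with normexp background correction, 2497 with only the arrays compared, 264 with slide as a block, 763 with only the arrays that carry Y-linked signal and 88 with slide column as a covariate; leaving out single arrays gave 487 to 1666. With replicate number as a block the step had 4934 calls and the difference 930; the B10.BR numbers correlated at 0.21, 0.12 and 0.24, and those of BALB.K did not all exceed 0.1. Over the named genes, 3398 recomputed values kept direction and side of the threshold, 456 no longer passed, 26 passed newly and 2 changed sign: Bax stood at 0.16 with spike-in scaling and Mki67 at 0.038 with slide column as a covariate, and neither passes as reported. Fewer samples enter the fits without single arrays; the cause of the other shifts was not tested. Slide as a block could not be used for the step, whose arrays share 1 slide, and the deposited table and the 12-array fit give no value for the difference. Signal over background limits dim probes, among them Tsga13 at 800 cGy and Ptx3, Reg2, Reg3a, Reg3b and Cela2a at 400 cGy, which were not well above background on every array of that dose.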
